A study of Mus musculus with 18 samples.

Results

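The genes described here are 10 neurotransmitter receptor genes, *Htr2c*, *Gabrg1*, *Gabra2*, *Gabra4*, *Gabrb1*, *Grm3*, *Chrm1*, *Chrnb4*, *Adra2c* and *Vipr2*, out of 52636 genes in a count table from mouse retinal pigment epithelium (RPE). They were chosen by name because their measured levels differed between vector groups of these same libraries. Their levels and fold changes are therefore given as a description, with no test. All 10 gene symbols were found in the table, each in 1 row.

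RPE was collected at postnatal day (P) 14 from C57BL/6 mice, with 3 libraries in each of 6 groups. Each library came from the pooled eyes of 1 mouse, so the 3 libraries of a group are 3 animals. The uninjected mice received no virus. The other 5 groups received an AAV8 vector under the retina at birth in both eyes, driven by the *Best1* promoter, which acts in the RPE. The GFP group carried green fluorescent protein. The nSREBP2 group carried the cleaved nuclear form of SREBP2, the transcription factor of cholesterol synthesis. The ctrl sh group carried a hairpin labelled Laczsh, and the *Lrp2* sh1 and *Lrp2* sh2 groups carried 2 different short hairpins against *Lrp2*, the gene of the endocytic receptor megalin. The study compared nSREBP2 with GFP and each *Lrp2* hairpin with ctrl sh to find genes that act downstream of SREBP2 and *Lrp2* in eye growth.

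Neurotransmitter receptors fall into ligand-gated ion channels, such as GABA-A receptors and nicotinic acetylcholine receptors, and G protein-coupled receptors, such as muscarinic, adrenergic and metabotropic glutamate receptors. A GABA-A receptor is a chloride channel built from alpha, beta and usually gamma subunits, so the transcripts of several genes are needed for 1 channel. The RPE is an epithelium that lies against the photoreceptors and responds to several transmitters through calcium and cyclic AMP.

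The libraries held 8921885 to 13696934 counts. Levels are counts per 1000000 counts of the library after scaling by trimmed mean of M values (TMM) factors, written CPM. A level that rests on 3 counts or fewer in a library is called at the floor, which was 0.216 to 0.327 CPM. Transcripts of the Y chromosome and *Xist* marked all 3 nSREBP2 libraries as male and all GFP, ctrl sh and *Lrp2* sh1 libraries as female, while the uninjected and *Lrp2* sh2 groups held both sexes. The vector and the sex of the mice cannot be told apart in the comparison of nSREBP2 with GFP. The targeted gene behaved as labelled: *Lrp2* was at 87.6 to 165.8 CPM in ctrl sh, 29.9 to 42.8 CPM in *Lrp2* sh1 and 34.6 to 43.6 CPM in *Lrp2* sh2.

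A list of 12 RPE marker genes was detected in every group, but its summed level differed between them. It was 5256 to 11560 CPM in uninjected mice, 4860 to 7289 CPM in ctrl sh, 4294 to 4886 CPM in *Lrp2* sh1, 3573 to 3697 CPM in GFP, 3152 to 4169 CPM in nSREBP2 and 3024 to 3266 CPM in *Lrp2* sh2. *Rpe65*, the isomerase of the visual cycle and a defining RPE gene, was at 376 to 1127 CPM in uninjected mice and at 1.06 to 2.29 CPM in GFP. In ctrl sh it stood at 97.0 CPM in replicate 1 and at 2.58 and 1.78 CPM in replicates 2 and 3. The libraries are bulk tissue, in which fewer cells of a type and less RNA per cell cannot be told apart.

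Of the 10 genes, 8 had their highest group mean in ctrl sh, while *Chrm1* was highest in *Lrp2* sh2 and *Chrnb4* in *Lrp2* sh1. For *Gabra4*, *Gabrb1* and *Adra2c* the ctrl sh libraries overlapped those of uninjected mice. The genes were chosen by these levels, and the share of all genes highest in ctrl sh is not given here. The lowest group mean was in uninjected mice for 3 genes, in nSREBP2, *Lrp2* sh1 and *Lrp2* sh2 for 2 genes each and in GFP for 1 gene. No group was therefore lowest for most of the genes.

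**Figure D1:**
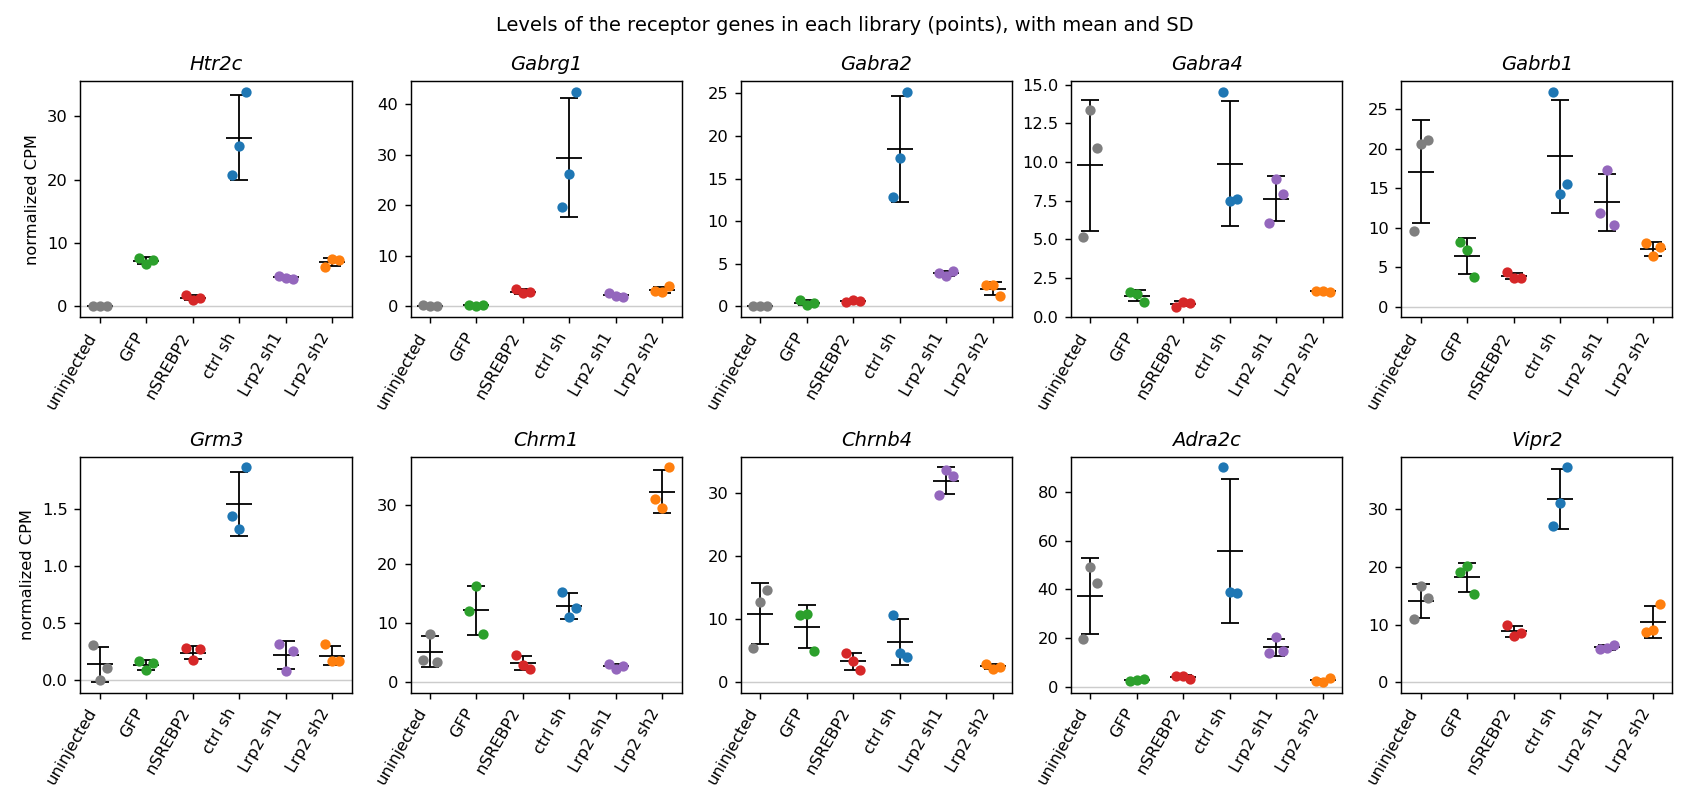
Normalized CPM (y axis, linear, a separate scale for each gene) of the 10 receptor genes in the 6 groups (x axis), with 1 point per library and the mean ± SD (n = 3) in black. *Htr2c*, *Gabrg1*, *Gabra2*, *Grm3* and *Vipr2* stand apart in ctrl sh, *Chrm1* in *Lrp2* sh2 and *Chrnb4* in *Lrp2* sh1.

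A gene was called where edgeR gave a Benjamini-Hochberg adjusted p under 0.05 and an absolute log2 fold change (log2FC) above 1. Since these contrasts chose the genes, the counts are set beside the share of all tested genes that was called and nothing is read from them. For nSREBP2 against GFP, 1 gene was called higher and 4 lower of 8 tested, where 4.71% of all genes were called higher and 1.96% lower. For *Lrp2* sh1 against ctrl sh, 1 was called higher and 7 lower of 10, beside 0.449% and 0.545% of all genes. For *Lrp2* sh2 against ctrl sh, 1 was called higher and 9 lower of 10, beside 2.98% and 1.78% of all genes. Both hairpins were compared with the same ctrl sh libraries.

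The control vectors also differed from no injection. For GFP against uninjected mice, 1 gene was called higher and 2 lower of 7 tested, beside 0.219% of all genes higher and 1.19% lower. For ctrl sh against uninjected mice, 6 of 10 were called higher, beside 0.875% of all genes higher and 1.51% lower. Between the hairpins, *Lrp2* sh2 against *Lrp2* sh1, 1 was called higher and 3 lower of 9, beside 3.32% and 1.81% of all genes. The count for nSREBP2 against GFP fell from 5 to 3 without nSREBP2 replicate 2 or without GFP replicate 2, and the count for ctrl sh against uninjected mice fell from 6 to 3 without ctrl sh replicate 2.

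**Figure D2:**
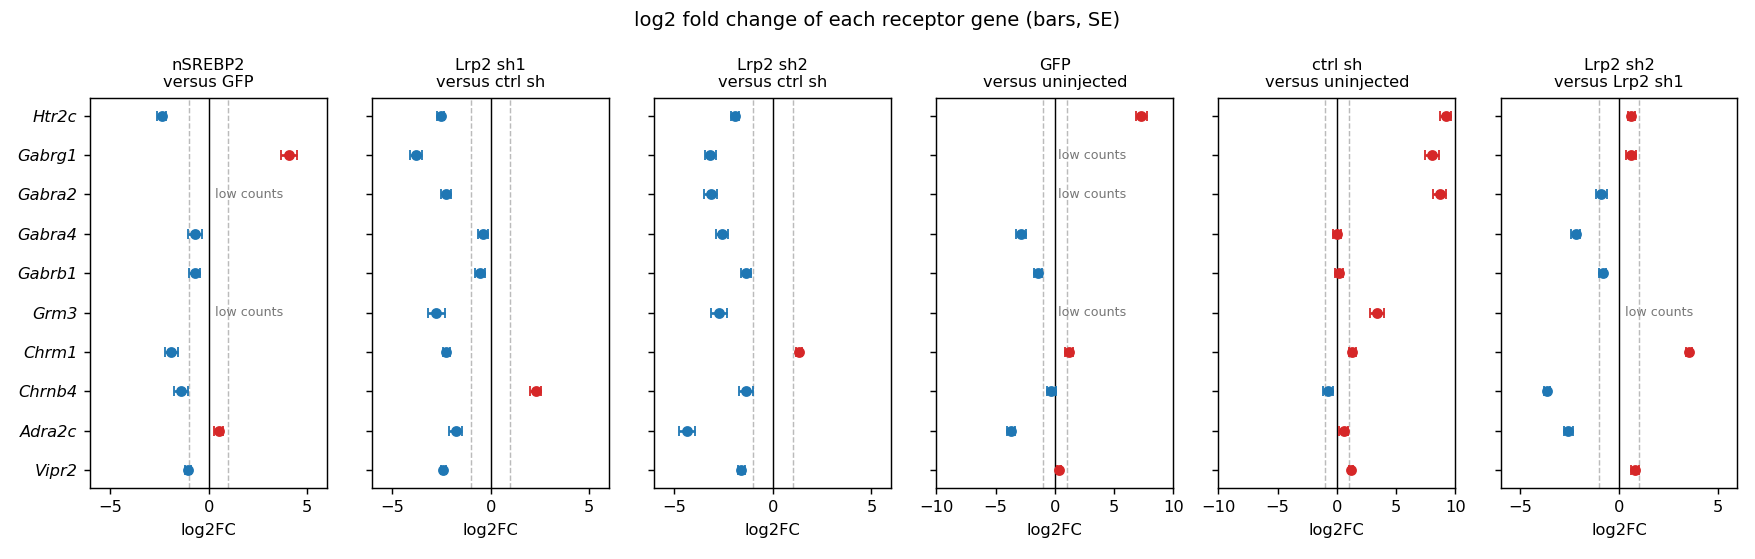
log2FC (x axis) of each receptor gene (y axis) in the 6 comparisons, as points with bars of 1 SE, red above 0 and blue below, with dashed lines at 1 and -1. Genes marked as low counts were not tested, and in *Lrp2* sh2 against ctrl sh all genes but *Chrm1* lie below 0.

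The GABA-A receptor genes were first in number. *Gabrg1*, *Gabra2*, *Gabra4* and *Gabrb1* encode a gamma, 2 alpha and a beta subunit, and they lie in 1 cluster on chromosome 5 of the GRCm38 genome. In the GENCODE M21 annotation *Gabrg1* spans chr5:70751047-70842617 and *Gabra2* spans chr5:70957597-71095849, both on the minus strand. *Gabra4* spans chr5:71569749-71658308 on the minus strand and *Gabrb1* spans chr5:71658113-72149037 on the plus strand. The last pair is arranged head to head, with 5′ ends that overlap over 196 bases, of which 46 are exonic in both genes. Whether the counting used strand is not given in the sources used here, so counts over those 46 bases are uncertain.

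The promoters of these 4 genes are shown because the genes share a cluster but not a pattern across the vectors. Each sequence runs 5′ to 3′ on the strand of its gene, from 250 bases before to 50 bases after the start site given by RefSeq (GRCm38.p6). Capitals mark the letters GTGGGG, an SRE-like sequence of the kind SREBP2 can bind, or GGGCGG, the GC box bound by SP1-type factors, on either strand. The marked runs do not overlap one another. The E-box CACGTG was also searched and none of these 4 windows holds it.
*Gabrg1*, chr5:70842568-70842867, minus strand: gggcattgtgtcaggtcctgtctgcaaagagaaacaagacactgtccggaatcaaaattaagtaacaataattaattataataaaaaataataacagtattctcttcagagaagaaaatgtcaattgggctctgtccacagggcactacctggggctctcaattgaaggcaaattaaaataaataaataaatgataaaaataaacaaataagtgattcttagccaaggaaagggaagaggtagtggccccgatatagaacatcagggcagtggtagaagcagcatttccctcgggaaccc
*Gabra2*, chr5:71095800-71096099, minus strand: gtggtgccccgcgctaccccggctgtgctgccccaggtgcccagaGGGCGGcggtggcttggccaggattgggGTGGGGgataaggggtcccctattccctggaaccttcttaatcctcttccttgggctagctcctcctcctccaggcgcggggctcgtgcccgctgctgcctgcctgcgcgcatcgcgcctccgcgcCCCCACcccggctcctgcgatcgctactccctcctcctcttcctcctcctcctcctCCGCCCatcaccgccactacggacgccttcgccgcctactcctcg
*Gabra4*, chr5:71658259-71658558, minus strand: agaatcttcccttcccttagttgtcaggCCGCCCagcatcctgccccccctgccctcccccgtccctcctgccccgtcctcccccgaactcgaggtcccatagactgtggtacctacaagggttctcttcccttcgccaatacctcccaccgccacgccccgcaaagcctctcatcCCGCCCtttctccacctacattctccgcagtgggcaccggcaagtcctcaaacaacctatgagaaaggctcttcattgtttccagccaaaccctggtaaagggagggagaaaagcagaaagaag
*Gabrb1*, chr5:71657671-71657970, plus strand: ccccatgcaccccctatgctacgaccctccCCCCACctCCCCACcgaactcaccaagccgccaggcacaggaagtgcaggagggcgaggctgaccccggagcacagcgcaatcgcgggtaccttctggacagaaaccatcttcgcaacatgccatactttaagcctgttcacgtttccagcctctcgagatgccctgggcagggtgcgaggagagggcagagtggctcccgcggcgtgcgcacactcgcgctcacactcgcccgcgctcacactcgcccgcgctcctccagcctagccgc

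The *Gabrg1* window is 38.3% G and C with 3 CpG dinucleotides and none of the marked letters. The *Gabra2* window is 70.0% G and C with 25 CpG, 2 SRE-like sequences and 2 GC boxes. The *Gabra4* window is 58.7% G and C with 12 CpG and 2 GC boxes, and the *Gabrb1* window is 66.0% G and C with 25 CpG and 2 SRE-like sequences. For *Gabrb1* the table lists a second start far downstream inside the gene, whose window holds none of the letters. Over 32851 mouse promoters of the same length, 28.7% hold GTGGGG, 35.7% hold GGGCGG and 7.15% hold CACGTG, and the median window is 52.7% G and C with 7 CpG.

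*Gabrg1*, encoding the gamma1 subunit, was at the floor with GFP or with no vector. In uninjected mice it had 3, 0 and 0 counts, and in GFP 2, 1 and 3 counts, so all 6 libraries were at the floor. In ctrl sh it was at 19.7, 26.1 and 42.5 CPM, in *Lrp2* sh1 at 2.54, 2.06 and 1.87 CPM and in *Lrp2* sh2 at 2.93, 2.86 and 3.99 CPM. In nSREBP2 it was at 3.44, 2.55 and 2.72 CPM. The ctrl sh libraries lay far above all others, and nSREBP2 and *Lrp2* sh2 overlapped.

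From these counts, *Gabrg1* in nSREBP2 was 17.6 times its pooled level in GFP, with an exact 95% interval of 7.79 to 49.1 that covers counting error only. In ctrl sh it was 281.5 times the pooled uninjected level, with an interval of 96.1 to 1367. Against ctrl sh its log2FC was -3.76 ± 0.31 (SE, n = 3 and 3) in *Lrp2* sh1 and -3.15 ± 0.29 in *Lrp2* sh2. *Gabrg1* was thus detected above the floor in nSREBP2, ctrl sh and both *Lrp2* hairpin groups.

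*Gabra2*, encoding the alpha2 subunit, lies next to *Gabrg1*, 115 kb away. It had 1, 0 and 0 counts in uninjected mice and stood at 12.8, 17.4 and 25.2 CPM in ctrl sh, a pooled ratio of 531 with an interval of 94.98 to 21000. In *Lrp2* sh1 it was at 3.89, 3.55 and 4.17 CPM, and in *Lrp2* sh2 at 2.46, 2.52 and 1.16 CPM. Levels in *Lrp2* sh1 and *Lrp2* sh2 did not overlap, and both lay between ctrl sh and the remaining groups.

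In GFP *Gabra2* stood at 0.764, 0.176 and 0.376 CPM and in nSREBP2 at 0.558, 0.790 and 0.636 CPM, which overlapped. Unlike *Gabrg1*, then, *Gabra2* gave no separation of nSREBP2 from GFP, where its counts were too low to be tested. Against ctrl sh the log2FC was -2.25 ± 0.24 in *Lrp2* sh1 and -3.15 ± 0.32 in *Lrp2* sh2.

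*Gabra4* and *Gabrb1*, encoding the alpha4 and beta1 subunits, followed another order. *Gabra4* was at 5.12, 13.4 and 10.9 CPM in uninjected mice, 14.5, 7.49 and 7.61 CPM in ctrl sh and 6.03, 8.92 and 7.92 CPM in *Lrp2* sh1, 3 groups that overlapped. It was at 1.61, 1.497 and 0.979 CPM in GFP, 0.651, 0.965 and 0.908 CPM in nSREBP2 and 1.67, 1.68 and 1.58 CPM in *Lrp2* sh2. The 9 libraries of GFP, nSREBP2 and *Lrp2* sh2 all lay below the 9 others.

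The log2FC of *Gabra4* was -2.85 ± 0.39 in GFP against uninjected mice, -2.57 ± 0.30 in *Lrp2* sh2 against ctrl sh and -2.19 ± 0.22 in *Lrp2* sh2 against *Lrp2* sh1. In *Lrp2* sh1 against ctrl sh it was -0.39 ± 0.26 and in ctrl sh against uninjected mice 0.01 ± 0.36, and neither was called. The call in GFP was lost without GFP replicate 2, where the log2FC was -2.92. Those last 2 values have no stable sign, since without ctrl sh replicate 1 they became 0.01 and -0.38.

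*Gabrb1* was at 9.52, 20.6 and 21.04 CPM in uninjected mice, 27.2, 14.3 and 15.5 CPM in ctrl sh and 11.9, 17.3 and 10.4 CPM in *Lrp2* sh1. It was at 8.15, 7.22 and 3.76 CPM in GFP, 4.37, 3.69 and 3.63 CPM in nSREBP2 and 8.09, 6.39 and 7.48 CPM in *Lrp2* sh2. The order of the groups matched that of *Gabra4* with smaller gaps, and here too GFP, nSREBP2 and *Lrp2* sh2 lay below the other 3 groups. Its log2FC was -1.36 ± 0.24 in *Lrp2* sh2 against ctrl sh, and -1.43 ± 0.35 in GFP against uninjected mice, which edgeR did not call with all libraries and called at -1.72 without uninjected replicate 1.

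The 4 subunit genes of the cluster therefore fell into 2 neighbouring pairs. *Cox7b2*, which lies between *Gabra2* and *Gabra4*, was at a mean of 0 in 5 groups and 0.0587 CPM in GFP, too low to show either pattern. The genes on either side of the cluster showed neither pattern. *Gnpda2*, on the *Gabrg1* side, had group means of 12.1 to 15.1 CPM, and *Commd8*, 7.54 kb beyond *Gabrb1*, of 32.5 to 45.3 CPM, and neither was called in any of the 6 comparisons. Of the 15 non-member genes that flank the 10 receptor genes, 2 were called in at least 1 comparison. *Il13ra2*, beside *Htr2c*, was called higher in *Lrp2* sh2 than in *Lrp2* sh1. *9330182L06Rik*, 3.72 kb from *Grm3*, was called in 4 comparisons. It was higher in ctrl sh than in uninjected mice (log2FC 1.655), as was *Grm3*, and higher in nSREBP2 than in GFP (2.34). It was lower in *Lrp2* sh2 than in ctrl sh or *Lrp2* sh1. In *Lrp2* sh1 against ctrl sh it was not called (0.14), while *Grm3* was lower (-2.76).

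**Figure D3:**
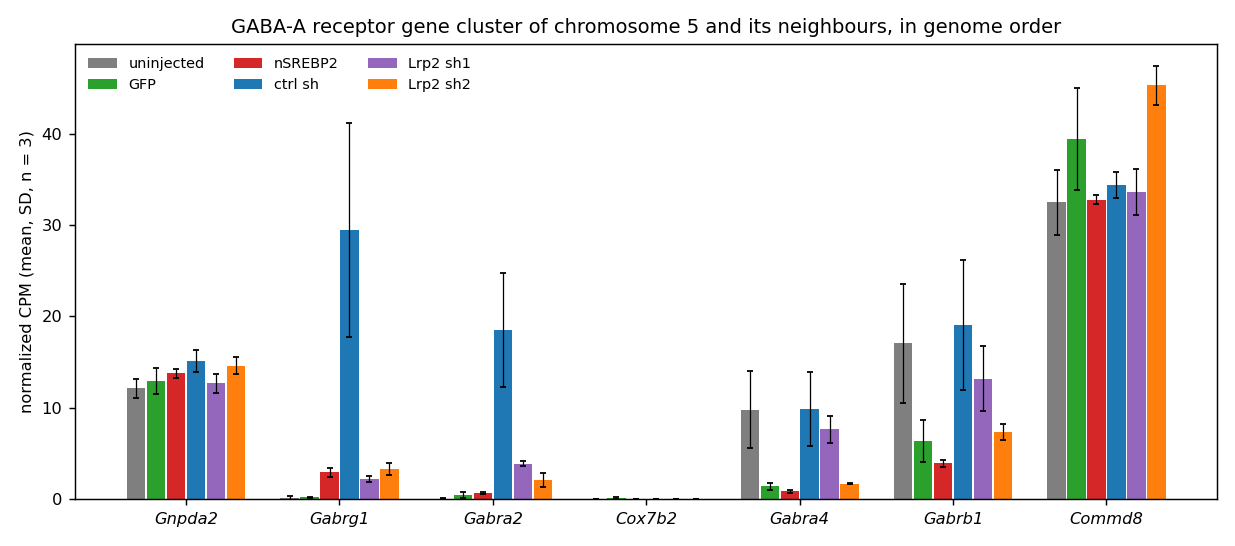
Mean normalized CPM (y axis, linear from 0; bars, SD, n = 3) of the GABA-A receptor gene cluster and its flanking genes in genome order (x axis) in the 6 groups. *Gabrg1* and *Gabra2* are high in ctrl sh, *Gabra4* and *Gabrb1* are high in uninjected mice, ctrl sh and *Lrp2* sh1, and the flanking *Gnpda2* and *Commd8* show neither pattern.

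*Htr2c*, on chrX:146962513-147197277 (plus strand), encodes the serotonin 2C receptor, which signals through phospholipase C and is best known from the choroid plexus. It had 0, 1 and 0 counts in uninjected mice. In GFP it was at 7.72, 6.69 and 7.30 CPM and in ctrl sh at 20.7, 25.3 and 33.9 CPM. It was thus detected in all 15 libraries with a vector and was at the floor in the 3 without. The pooled ratio to uninjected mice was 212 in GFP, with an interval of 37.8 to 8412, and 769 in ctrl sh, with an interval of 138 to 30420.

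Among vector groups *Htr2c* was lowest in nSREBP2, at 1.77, 1.05 and 1.36 CPM. It was at 4.84, 4.54 and 4.35 CPM in *Lrp2* sh1 and at 6.26, 7.48 and 7.32 CPM in *Lrp2* sh2. The log2FC was -2.37 ± 0.24 in nSREBP2 against GFP, -2.54 ± 0.19 in *Lrp2* sh1 against ctrl sh and -1.91 ± 0.18 in *Lrp2* sh2 against ctrl sh. *Htr2c* was lower in every library of these 3 groups than in every library of its control vector, and GFP and *Lrp2* sh2 overlapped each other.

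The promoter of *Htr2c* is shown as that of the gene at the floor in uninjected mice and above it with every vector. It is 56.3% G and C with 5 CpG and 1 SRE-like sequence, marked by capitals as above.
*Htr2c*, chrX:146962263-146962562, plus strand: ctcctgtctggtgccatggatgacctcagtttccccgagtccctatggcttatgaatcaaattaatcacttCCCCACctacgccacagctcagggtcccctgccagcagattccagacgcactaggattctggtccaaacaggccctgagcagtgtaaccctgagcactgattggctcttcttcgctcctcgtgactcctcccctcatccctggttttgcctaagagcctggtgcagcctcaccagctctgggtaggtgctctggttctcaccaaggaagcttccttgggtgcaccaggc

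*Grm3*, on chr5:9485541-9725170 (minus strand), encodes a metabotropic glutamate receptor that lowers cyclic AMP. It had 20, 17 and 22 counts in ctrl sh, or 1.44, 1.33 and 1.86 CPM. In the 15 other libraries it had 0 to 4 counts. Only the ctrl sh group lay clear of the floor, with a pooled ratio of 11.2 to uninjected mice and an interval of 4.15 to 42.5. Its log2FC against ctrl sh was -2.76 ± 0.44 in *Lrp2* sh1 and -2.74 ± 0.41 in *Lrp2* sh2.

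*Gabrg1*, *Gabra2*, *Htr2c* and *Grm3* were thus the genes at the floor in uninjected mice and above it in ctrl sh. Marker genes of other cell types also differed between these groups. *Mbp*, a myelin gene, was at 40.6 to 51.2 CPM in uninjected mice and at 361, 714 and 115 CPM in ctrl sh, and 2 of 5 tested Schwann cell and oligodendrocyte markers were called higher in ctrl sh. The summed Müller glia and astrocyte markers were at 1307 to 2105 CPM in uninjected mice and 2412 to 2713 CPM in ctrl sh, with 1 of 6 called higher. The summed general neuron markers were at 12.3 to 17.4 CPM and 20.7 to 27.7 CPM, with 1 of 3 called higher. In the other vector groups the Müller glia and astrocyte sum lay within the uninjected range. It was 1451 to 1850 CPM in GFP, 1422 to 1587 in nSREBP2, 2022 to 2058 in *Lrp2* sh1 and 1355 to 1746 in *Lrp2* sh2. Within ctrl sh the highest *Htr2c*, *Gabrg1*, *Gabra2* and *Grm3* were in replicate 3. The Müller glia and astrocyte sum was 2412, 2672 and 2713 CPM in replicates 1 to 3, and the highest *Mbp* was in replicate 2. These rankings rest on 3 libraries, and the part of these cells in the receptor levels was not tested.

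The acetylcholine receptor genes separated the 2 *Lrp2* hairpins. *Chrm1*, on chr19:8663789-8683587 (plus strand), encodes the M1 muscarinic receptor, which couples to phospholipase C. It was at 30.9, 29.4 and 36.3 CPM in *Lrp2* sh2, 15.3, 11 and 12.5 CPM in ctrl sh and 3.10, 2.31 and 2.81 CPM in *Lrp2* sh1. Each hairpin group was clear of ctrl sh, on opposite sides of it.

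*Chrm1* stood at 12.05, 16.3 and 8.13 CPM in GFP, 4.65, 2.98 and 2.18 CPM in nSREBP2 and 3.79, 8.23 and 3.49 CPM in uninjected mice. GFP overlapped ctrl sh and uninjected mice, while nSREBP2 lay below GFP. The log2FC was -2.24 ± 0.18 in *Lrp2* sh1 and 1.33 ± 0.14 in *Lrp2* sh2 against ctrl sh, 3.56 ± 0.15 in *Lrp2* sh2 against *Lrp2* sh1, and -1.89 ± 0.32 in nSREBP2 against GFP. In the annotation 329 exonic bases of *Chrm1* are overlapped by a gene on the other strand, *Gm22820*. The *Chrm1* promoter is not shown.

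*Chrnb4*, on chr9:55028154-55048779 (minus strand), encodes the beta4 nicotinic subunit, which forms cation channels with alpha3. It was at 29.6, 33.6 and 32.6 CPM in *Lrp2* sh1, at 10.7, 4.68 and 3.97 CPM in ctrl sh and at 2.85, 2.19 and 2.49 CPM in *Lrp2* sh2. It was at 5.43, 12.7 and 14.6 CPM in uninjected mice, 10.7, 10.8 and 4.89 CPM in GFP and 4.65, 3.42 and 1.91 CPM in nSREBP2. The *Lrp2* sh1 libraries lay above all 15 others, and the remaining groups overlapped their neighbours in order. *Chrna3*, the alpha3 gene 1.59 kb away, had too few counts to be tested in any comparison. Its group mean was highest in *Lrp2* sh1, at 0.556 to 1.32 CPM, where every library lay above those of ctrl sh (0 to 0.390 CPM) and *Lrp2* sh2 (0.084 to 0.397 CPM).

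The log2FC of *Chrnb4* was 2.29 ± 0.28 in *Lrp2* sh1 and -1.35 ± 0.37 in *Lrp2* sh2 against ctrl sh, and -3.65 ± 0.13 in *Lrp2* sh2 against *Lrp2* sh1. In nSREBP2 against GFP it was -1.40 ± 0.37. The calls of lower *Chrnb4* depended on single libraries. In *Lrp2* sh2 against ctrl sh the call was lost without any 1 of the *Lrp2* sh2 libraries, at -1.46 to -1.26, and without ctrl sh replicate 1, at -0.78. In nSREBP2 against GFP it was lost without nSREBP2 replicate 2 or 3 or GFP replicate 1 or 2, at -1.42 to -1.12. With sex as a term in the fit over all 18 libraries the call was lost in *Lrp2* sh2 against ctrl sh, at -1.57, and in nSREBP2 against GFP, at -1.72.

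*Adra2c*, a gene with 1 exon on chr5:35278319-35281763 (plus strand), encodes the alpha2C-adrenergic receptor, which lowers cyclic AMP in response to noradrenaline. It was at 19.9, 49.4 and 42.6 CPM in uninjected mice, 90.0, 39.0 and 38.4 CPM in ctrl sh and 14.1, 20.3 and 14.7 CPM in *Lrp2* sh1. It was at 2.38, 2.99 and 3.24 CPM in GFP, 4.46, 4.48 and 3.36 CPM in nSREBP2 and 2.46, 2.10 and 3.58 CPM in *Lrp2* sh2. As for *Gabra4* and *Gabrb1*, the GFP, nSREBP2 and *Lrp2* sh2 libraries all lay below the others.

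The log2FC of *Adra2c* was -3.70 ± 0.34 in GFP against uninjected mice, -1.78 ± 0.32 in *Lrp2* sh1 against ctrl sh, -4.35 ± 0.39 in *Lrp2* sh2 against ctrl sh and -2.58 ± 0.22 in *Lrp2* sh2 against *Lrp2* sh1. In nSREBP2 against GFP it was 0.51 ± 0.23 and was not called. The call in *Lrp2* sh1 against ctrl sh was lost without *Lrp2* sh1 replicate 1, at -1.68, or replicate 3, at -1.71. Its RefSeq promoter window holds 1 E-box, the only one among the windows of the genes described here.

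RPE marker genes differed in the same direction as *Adra2c*, *Gabra4* and *Gabrb1* in some comparisons and not in others. Of the 12 RPE markers, 7 were called lower in GFP than in uninjected mice and 5 were called lower in *Lrp2* sh2 than in ctrl sh, 2 comparisons in which the 3 receptor genes were also lower. In ctrl sh against uninjected mice the median log2FC of the list was -0.97, while that of *Adra2c* was 0.58, of *Gabra4* 0.01 and of *Gabrb1* 0.15. In *Lrp2* sh1 against ctrl sh the median of the list was -0.28 while *Adra2c* was at -1.78. *Lrat*, which makes retinyl esters, fell in GFP with a log2FC of -4.63 and in *Lrp2* sh2 with a log2FC of -4.44. The part of these differences in RPE transcripts in the receptor levels was not tested. In nSREBP2 against GFP, 3 RPE markers were called lower and 1, *Best1*, higher with a log2FC of 1.75.

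**Figure D4:**
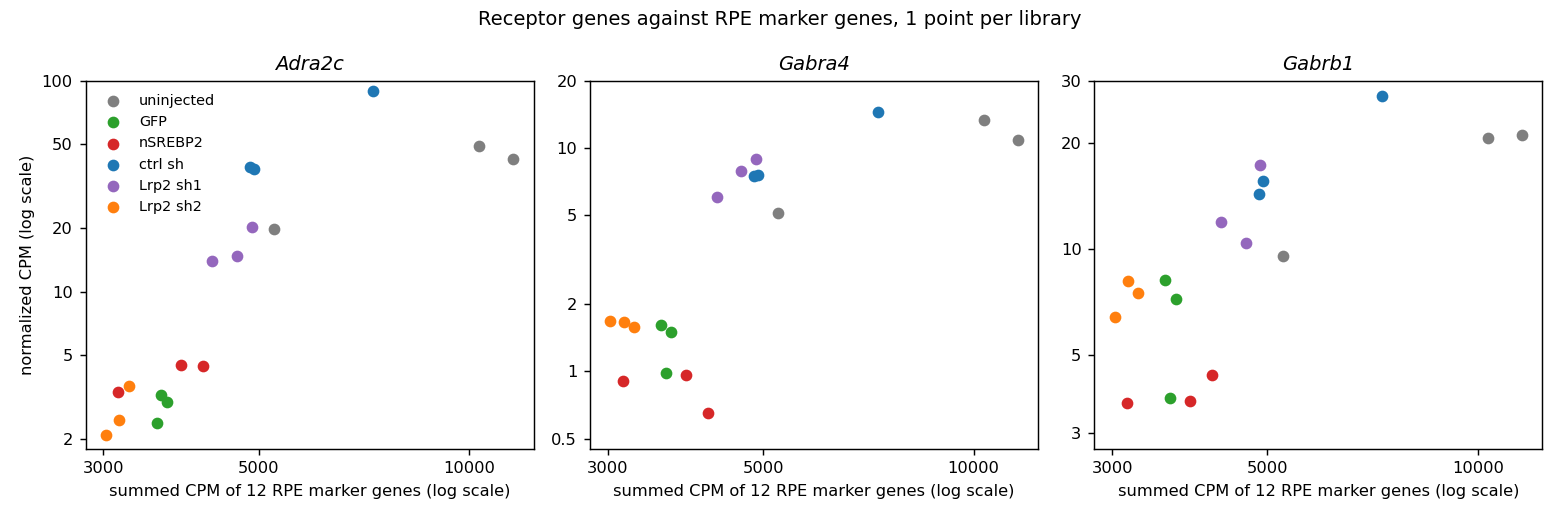
Normalized CPM (y axis, log scale) of *Adra2c*, *Gabra4* and *Gabrb1* against the summed CPM of 12 RPE marker genes (x axis, log scale), with 1 point per library coloured by group. The GFP, nSREBP2 and *Lrp2* sh2 libraries lie at the lower left, with RPE marker sums of 3024 to 4169 CPM, and the uninjected, ctrl sh and *Lrp2* sh1 libraries at the upper right.

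*Vipr2*, on chr12:116077726-116146261 (plus strand), encodes the VPAC2 receptor for vasoactive intestinal peptide, which raises cyclic AMP. It was at 27.0, 31.1 and 37.2 CPM in ctrl sh, 5.72, 5.95 and 6.47 CPM in *Lrp2* sh1 and 8.72, 9.08 and 13.6 CPM in *Lrp2* sh2. It was at 19.1, 20.1 and 15.3 CPM in GFP, 9.86, 8.07 and 8.54 CPM in nSREBP2 and 10.9, 16.7 and 14.6 CPM in uninjected mice. The nSREBP2 and both *Lrp2* hairpin groups each lay clear below their control vector, and both control vectors had means above that of uninjected mice.

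The log2FC of *Vipr2* was -1.04 ± 0.14 in nSREBP2 against GFP, -2.40 ± 0.14 in *Lrp2* sh1 against ctrl sh and -1.59 ± 0.18 in *Lrp2* sh2 against ctrl sh. In ctrl sh against uninjected mice it was 1.16 ± 0.17. Without nSREBP2 replicate 2 or GFP replicate 2 the first of these was -0.98 or -0.96, under the limit for a call, and the last was not called without ctrl sh replicate 2, at 1.18.

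Per kilobase of annotated exon, *Adra2c* was the most abundant of the 10 genes in uninjected mice, with 10.8 CPM per kb. *Vipr2* followed at 3.15, *Chrnb4* at 2.93, *Gabra4* at 1.61, *Gabrb1* at 1.23 and *Chrm1* at 0.797 CPM per kb. In ctrl sh *Adra2c* and *Vipr2* also led, at 16.2 and 7.12 CPM per kb, and *Gabrg1* came next at 3.74 CPM per kb. In *Lrp2* sh1 *Chrnb4* led at 8.58 CPM per kb and in *Lrp2* sh2 *Chrm1* led at 4.97 CPM per kb.

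The 3 libraries of a group did not rank alike for all genes. In ctrl sh, replicate 1 was highest for *Gabra4*, *Gabrb1*, *Chrm1*, *Chrnb4* and *Adra2c*, and also for *Lrp2*, while replicate 3 was highest for *Htr2c*, *Gabrg1*, *Gabra2*, *Grm3* and *Vipr2*. Replicate 1 of ctrl sh also had the highest RPE marker sum of that group, 7289 CPM. In uninjected mice, replicate 1 was lowest for *Gabra4*, *Gabrb1*, *Chrnb4*, *Adra2c* and *Vipr2*, and had the lowest RPE marker sum, 5256 CPM.

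Likeness of pattern was measured as Pearson's r of log2(CPM + 0.5) over the 18 libraries, searched among 17346 genes with a mean of at least 1 CPM. The libraries share 6 groups, so r reflects mostly the group means. *Gabra4* was most like *Tmem229b* (r = 0.977) and *Rdh10*, a retinol dehydrogenase (r = 0.972), and *Adra2c* was most like *Rdh10* (r = 0.959) and *Slc7a10* (r = 0.956). *Rdh10* was at 226 to 666 CPM in uninjected mice, 311 to 608 CPM in ctrl sh and 261 to 357 CPM in *Lrp2* sh1, and at 74.3 to 108 CPM in the 3 other groups. *Gabrb1* was most like *Gdf11* (r = 0.960) and *Gabra4* (r = 0.949).

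*Gabrg1* was most like *Gabra2* among all genes searched (r = 0.901), followed by *Kcnab2* (r = 0.877), and the 2 genes most like *Grm3* were *Gabrg1* (r = 0.872) and *Gabra2* (r = 0.838). *Gabra2* was slightly closer to *Adam10* (r = 0.922) and *Htr2c* was closest to *Ptchd1* (r = 0.924) and *Ercc3* (r = 0.879). *Adam10* ranged from 177 to 283 CPM, so its pattern was alike in shape and far smaller in size. The closest genes to *Chrm1* were *Fras1* (r = 0.931) and *Npr1* (r = 0.924), to *Chrnb4* were *Lrrc24* (r = 0.949) and *Tuba4a* (r = 0.946), and to *Vipr2* were *Cirbp* (r = 0.899) and *Galnt7* (r = 0.871). *Chrm1* and *Chrnb4* had an r of -0.46 with each other.

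The 10 genes were set beside 98 other receptor genes of the same families, of which 60 passed the filter on low counts in at least 1 comparison and 25 were called in at least 1. In nSREBP2 against GFP, 13 of 56 tested rose and 4 fell, beside 4.71% of all genes called higher and 1.96% lower. The median log2FC was 0.05, beside -0.02 over all genes. *Grm6*, the glutamate receptor of ON bipolar cells, rose by a log2FC of 3.44 ± 0.40 (edgeR adjusted p = 0.000293). *Grm5* was at 1.395, 1.05 and 1.36 CPM in nSREBP2 and at the floor in GFP, a pooled ratio of 15.4 with an interval of 4.92 to 77.6 (edgeR adjusted p = 0.00222). The count was 17 in all and 11 without nSREBP2 replicate 2 or without GFP replicate 1. Among families, 3 of 8 tested GABA-A subunit genes rose, and both tested muscarinic genes, *Chrm2* and *Chrm3*, fell, with log2FC of -1.03 and -1.38 (these 2 were named after their values were seen).

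In *Lrp2* sh1 against ctrl sh, edgeR called 1 of the 47 other receptor genes tested, with a median log2FC of -0.11. Of all genes, 0.449% were called higher and 0.545% lower. The receptor gene called was *Grm8*, a metabotropic glutamate receptor. It was at 3.02, 8.51 and 13.9 CPM in ctrl sh and 2.62, 1.32 and 1.62 CPM in *Lrp2* sh1 (log2FC -2.17 ± 0.50, edgeR adjusted p = 0.0382). Its call was lost without *Lrp2* sh1 replicate 1, *Lrp2* sh1 replicate 3 or ctrl sh replicate 3, when edgeR called 0 genes with 10 to 13 at an unadjusted p under 0.05, while the count was 2 without ctrl sh replicate 1 or 2.

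In *Lrp2* sh2 against ctrl sh, 5 of 51 rose and 2 fell, beside 2.98% of all genes called higher and 1.78% lower. The median log2FC of the 51 was 0.00. *Adrb3*, the beta3-adrenergic receptor, was at 2.38, 2.27 and 1.996 CPM in *Lrp2* sh2 and at 0 to 2 counts per library in ctrl sh, a pooled ratio of 28.5 with an interval of 9.41 to 141 (edgeR adjusted p = 0.00047). *Adrb3* was at or below 0.279 CPM in all 15 libraries outside *Lrp2* sh2. *Grm6* rose by 3.87 ± 0.59 (adjusted p = 0.00221) and *Grm5* by 2.39 ± 0.52 (adjusted p = 0.0121). The count of 7 became 4 without *Lrp2* sh2 replicate 2 or ctrl sh replicate 2, and 12 without *Lrp2* sh2 replicate 3.

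**Figure D5:**
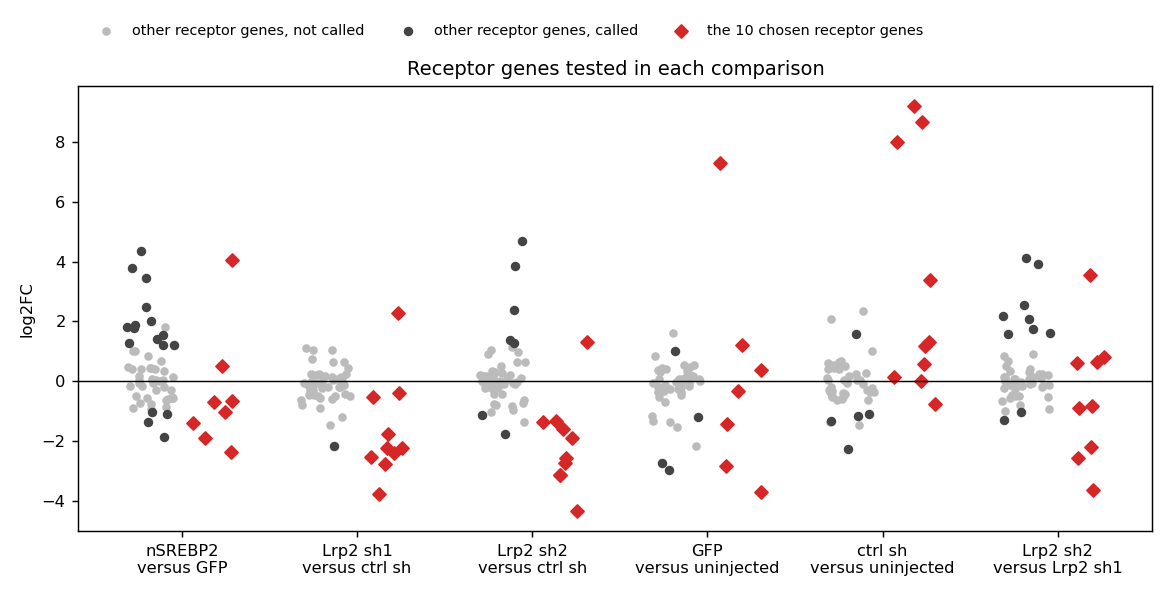
log2FC (y axis) of receptor genes tested in each of the 6 comparisons (x axis): other receptor genes not called in grey, other receptor genes called in dark grey and the 10 chosen genes as red diamonds, with sideways scatter for visibility only. The chosen genes were selected by these levels, and some lie near 0 in some comparisons, such as *Gabra4* (0.01) in ctrl sh against uninjected mice.

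For GFP against uninjected mice, 1 of 46 other receptor genes rose and 3 fell, beside 0.219% of all genes called higher and 1.19% lower. These shares were 0.875% and 1.51% for ctrl sh against uninjected mice and 3.32% and 1.81% for *Lrp2* sh2 against *Lrp2* sh1. *Htr3a* fell by 2.96 on the log2 scale (adjusted p = 0.0402), *Grik1*, a kainate receptor subunit, by 2.75 (adjusted p = 0.0069) and *Adra2a* by 1.19 (adjusted p = 0.0249), all by edgeR. The count of 4 was 1 without GFP replicate 1, GFP replicate 2 or uninjected replicate 3 and 2 without uninjected replicate 2. For ctrl sh against uninjected mice, 1 of 45 rose, the AMPA receptor subunit *Gria3* with a log2FC of 1.59 ± 0.21 (adjusted p = 0.00727), and 4 fell, among them *Grik1* at -2.28 (adjusted p = 0.0211) and *Chrna4* at -1.35 (adjusted p = 0.0143). The count of 5 was 1 without ctrl sh replicate 2 or 3 and 2 without uninjected replicate 3. Between *Lrp2* sh2 and *Lrp2* sh1, 8 of 51 were higher in *Lrp2* sh2 and 2 lower, led by *Grm6* at 4.13 ± 0.71 (adjusted p = 0.00259) and *Gria2* at 2.56 ± 0.52 (adjusted p = 0.00647). *Adrb3* was at the floor in *Lrp2* sh1, with a pooled ratio of 16.2 and an interval of 6.65 to 51.1 (edgeR adjusted p = 0.00011).

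*Grm6* and *Grm5* were higher in every nSREBP2 and *Lrp2* sh2 library than in every other library. *Gria2* did not share this pattern, with means of 2.55 CPM in uninjected mice, 2.95 CPM in nSREBP2 and 2.95 CPM in *Lrp2* sh2. Some markers of retinal neurons resembled *Grm6* and *Grm5*. The summed bipolar cell markers, a list that includes *Grm6*, did not, at 461 to 589 CPM in GFP and 414 to 558 CPM in nSREBP2. The summed rod markers were at 46.4 to 61.4 CPM in uninjected mice, 54.6 to 383 CPM in GFP, 352 to 504 CPM in nSREBP2, 57.3 to 81.3 CPM in ctrl sh, 43.8 to 88.5 CPM in *Lrp2* sh1 and 133 to 550 CPM in *Lrp2* sh2. In *Lrp2* sh2 against ctrl sh 13 of 16 rod markers were called higher, and in nSREBP2 against GFP 5 of 16. *Snap25*, a synaptic protein of neurons, was at 10.99 to 14.6 CPM in nSREBP2 and 5.57 to 14.9 CPM in *Lrp2* sh2, and at or below 3.09 CPM elsewhere. Of 8 amacrine and horizontal cell markers, 5 were higher in every nSREBP2 library than in every GFP library, with 3 tested and 1 of these called, lower in nSREBP2. Their summed level was 75.1 to 85.7 CPM in nSREBP2 and 74.8 to 102 CPM in GFP. *Slc32a1* was listed at 0 in all GFP libraries and was at 0.454 to 0.527 CPM in nSREBP2, and *Chat* was listed at 0 in all 18 libraries. All 6 fibroblast markers and all 6 macrophage markers were also higher in every nSREBP2 library than in every GFP library. Of them 1 and 2 were called higher, beside 4.71% of all genes. The share of all genes whose libraries separate in this way is not given here. The fibroblast sum was 34250 to 43760 CPM in GFP and 71390 to 85260 CPM in nSREBP2, and the macrophage sum 228 to 257 CPM and 408 to 429 CPM. The part of any of these cells in the receptor levels was not tested.

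A further 89 genes of transmitter synthesis, transport and breakdown, receptor anchoring and second messengers were counted the same way. Of all genes, 4.71% were called higher and 1.96% lower in nSREBP2 against GFP. Against ctrl sh these shares were 0.449% and 0.545% in *Lrp2* sh1 and 2.98% and 1.78% in *Lrp2* sh2. In nSREBP2 against GFP 7 of 71 tested rose and 1 fell, the vesicular glutamate transporter *Slc17a8*, from 7.04 to 8.81 CPM in GFP to 0.0908 to 1.23 CPM in nSREBP2 (log2FC -3.36 ± 0.45, edgeR adjusted p = 0.000703). The glutamate transporter *Slc1a7* rose by 2.42 ± 0.22 (adjusted p = 7.99e-05). In *Lrp2* sh2 against ctrl sh 6 of 71 rose and 4 fell, among them *Slc17a7*, the vesicular glutamate transporter of photoreceptors (3.46 ± 0.59, adjusted p = 0.00397), and the GABA transporter *Slc6a13* (-2.88 ± 0.59, adjusted p = 0.00906). In *Lrp2* sh1 against ctrl sh 2 of 69 rose: *Slc18a1*, a vesicular monoamine transporter (1.37 ± 0.23, adjusted p = 0.01), and *Ric3*, a chaperone of nicotinic receptors (1.16 ± 0.18, adjusted p = 0.00742). *Ric3* was at 15.6 to 17.3 CPM in *Lrp2* sh1, where *Chrnb4* was highest, and at 5.49 to 9.79 CPM in ctrl sh. In uninjected mice *Ric3* was at 6.86 to 16.5 CPM and overlapped *Lrp2* sh1. *Chrnb4* did not, at 5.43 to 14.6 CPM in uninjected mice and 29.6 to 33.6 CPM in *Lrp2* sh1.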

How the data were processed

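RNA was taken from RPE of P14 mice in 18 libraries, after depletion of ribosomal RNA and directional library preparation per the study's methods. The authors aligned reads with STAR to GRCm38, per the submitters' processing notes, and deposited raw read counts per gene in 1 table of 52636 genes. The annotation and the strand setting of the counting are not given in the sources used here. Of the table's gene identifiers, 49035 matched GENCODE M21 with their version.

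Groups came from the sample titles. Each of 6 comparisons was fitted on its own 6 libraries with edgeR 4.0.16 (R 4.3.3; filterByExpr, TMM, quasi-likelihood F test). A call needed a Benjamini-Hochberg adjusted p under 0.05 and an absolute log2FC above 1. The SE is the absolute log2FC divided by the square root of F. CPM used TMM factors over all 18 libraries. Where a group had 3 counts or fewer in each library, a ratio of pooled counts with an exact conditional 95% interval replaced the fold change. No 2 libraries of a group agreed within counting noise (lowest chi-square per degree of freedom 3.3). The procedure was tested on simulated counts.

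The 10 genes and the lists of other receptor, partner and marker genes were chosen with earlier results of these data known. Other receptor genes named in the text are the 3 with the largest absolute log2FC among those called without overlap between libraries in a comparison, and partner genes the 2 largest by the same rule in the comparisons of the study. Of the nearest protein-coding genes, those of the GABA-A receptor cluster, *Chrna3* and those called in a comparison were named. The 2 genes most like each receptor gene were also named. A receptor gene that the rule selects in nSREBP2 against GFP is not reported here. Alternatives were DESeq2 1.42.0, other size factors, other filters on low counts, 1 fit over all libraries, a term for sex, a replicate block and leaving out each library.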

Additional observations from a re-analysis of the deposited data

Results flagged for a closer look

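*Chrm1* and *Chrnb4* each differed from ctrl sh in opposite directions with the 2 *Lrp2* hairpins. For *Chrm1* the log2FC was -2.24 in *Lrp2* sh1 and 1.33 in *Lrp2* sh2, with every *Lrp2* sh1 library below and every *Lrp2* sh2 library above all 3 ctrl sh libraries. For *Chrnb4* the log2FC was 2.29 in *Lrp2* sh1 and -1.35 in *Lrp2* sh2, with every library on the side of its mean, and the second call was lost without ctrl sh replicate 1 or without any 1 of the *Lrp2* sh2 libraries. Both genes were chosen by these levels and both contrasts share the ctrl sh libraries. The direct comparison of *Lrp2* sh2 with *Lrp2* sh1 gave a log2FC of 3.56 for *Chrm1* and -3.65 for *Chrnb4*, given here as a description.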

How the results depend on the processing

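Counts of called genes moved with several settings. With no filter, the other receptor genes called were 5 in *Lrp2* sh1 against ctrl sh, 16 in *Lrp2* sh2 against ctrl sh, 10 in GFP against uninjected mice, 8 in ctrl sh against uninjected mice and 19 in *Lrp2* sh2 against *Lrp2* sh1, and the chosen genes called in GFP against uninjected mice were 5. With at least 10 counts in every library, fewer genes were tested, and the other receptor genes called were 6 in nSREBP2 against GFP, 3 in *Lrp2* sh2 against ctrl sh and 3 in *Lrp2* sh2 against *Lrp2* sh1, and the chosen genes called in ctrl sh against uninjected mice were 2. By DESeq2 the counts were 5 chosen genes in GFP against uninjected mice and 3 other receptor genes in *Lrp2* sh1 against ctrl sh. In 1 fit over all 18 libraries they were 6 and, for other receptor genes in *Lrp2* sh2 against ctrl sh, 11. With sex as a term they were 5 chosen genes in GFP against uninjected mice, and 9, 2 and 11 other receptor genes in nSREBP2 against GFP, *Lrp2* sh1 against ctrl sh and *Lrp2* sh2 against ctrl sh. By adjusted p alone they were 4, 11 and 16 other receptor genes in *Lrp2* sh1 and *Lrp2* sh2 against ctrl sh and in *Lrp2* sh2 against *Lrp2* sh1, and 8 chosen genes in the last. Correlations between the deviations of same-numbered libraries ran from -0.263 to 0.318. All were negative in the comparisons of the study and in ctrl sh against uninjected mice. In *Lrp2* sh2 against *Lrp2* sh1 they were -0.022, 0.261 and 0.318, and in GFP against uninjected mice 0.011, 0.275 and 0.078. Whether replicate numbers mark a block is not given in the sources used here. With a replicate block edgeR called 0 other receptor genes in *Lrp2* sh1 against ctrl sh, with 12 at an unadjusted p under 0.05. DESeq2 without the block called 3 there. With the block edgeR called 4 in *Lrp2* sh2 against ctrl sh and 2 in ctrl sh against uninjected mice. Leaving out 1 library at a time, the chosen genes called ranged from 3 to 5 in nSREBP2 against GFP and from 3 to 6 in ctrl sh against uninjected mice, and the other receptor genes from 11 to 17 in nSREBP2 against GFP, 0 to 2 in *Lrp2* sh1 and 4 to 12 in *Lrp2* sh2 against ctrl sh, 1 to 6 in GFP and 1 to 5 in ctrl sh against uninjected mice. The log2FC that changed sign were those of *Gabra4* in *Lrp2* sh1 against ctrl sh without ctrl sh replicate 1 (0.008, with -0.551 as the lowest over the libraries left out) and, in ctrl sh against uninjected mice, of *Gabra4* (-0.38) and *Gabrb1* (-0.20) without ctrl sh replicate 1 and of *Gabra4* (-0.29) and *Gabrb1* (-0.13) without uninjected replicate 1, with 0.309 and 0.335 as their highest values over the libraries left out. Of the single log2FC of the chosen genes, 650 kept sign and call, 28 lost the call, 10 gained it and 5 changed sign. Apart from the changes in the number of genes or libraries, the cause of these shifts was not tested. Depth limits *Grm3*, *Gabrg1*, *Gabra2* and *Htr2c*, whose floor of 3 counts leaves wide intervals.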
